A study of Mus musculus with 6 samples.

Results

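The genes described here mark muscle satellite cells or carry the signals that move and wake them: the transcription factor gene Pax7, the surface proteins Cd34, Vcam1, Sdc4 and Calcr, the growth factor Hgf with its receptor Met, and the chemokine Cxcl12 with its receptors Cxcr4 and Cxcr7 (now Ackr3). Members were the probe sets of the deposited log2 table whose platform symbol was exactly one of these names, which gave 111 of 241576 probe sets and 10 of 20416 genes. The cells were C2C12, mouse myoblasts of an established line that fuse into myotubes when serum is lowered, and 6 arrays were run. Cells were grown in 10% fetal bovine serum, moved to 2% horse serum to differentiate, and taken as myotubes on days 4 to 7. The insulin group was kept in 100 nM insulin for 48 h to make it insulin resistant, the control group received none, and per the labels the medium was renewed every 24 h. Each group held 3 arrays, called biological replicates, with nothing said of separate passages or of the age of the line, so p-values measure the spread between these arrays.

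Satellite cells are the stem cells of skeletal muscle. PAX7 is their defining transcription factor, and CD34, VCAM1, syndecan-4, the calcitonin receptor, CXCR4 and MET are surface proteins used to recognise or sort them. HGF, bound to the matrix and freed on injury, signals through the receptor tyrosine kinase MET and brings quiescent satellite cells into the cycle. CXCL12 attracts muscle progenitors through the G protein-coupled receptor CXCR4, while ACKR3 binds the same chemokine, recruits arrestin and takes the ligand up. C2C12 is a single line grown without the niche, so these genes are read here in a mixture of myotubes and the myoblasts that did not fuse. In such bulk RNA, fewer cells of a type and less RNA per cell cannot be told apart.

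A gene's value on an array is the median of its probe sets on the log2 scale, on which a difference of 1 is a 2-fold change. Of the 10 genes, 9 lay above the filter on dim genes (a mean of 7.05 over the 6 arrays) and were tested, and Calcr did not. Of the 9, Cd34 and Met rose, Cxcr4, Hgf and Cxcl12 fell, and Vcam1, Sdc4, Pax7 and Cxcr7 did not pass (limma, p-values adjusted by Benjamini-Hochberg, threshold 0.05). Of all 14291 tested genes 15.9% passed, 9.56% as higher and 6.35% as lower. The insulin and control arrays did not overlap in 7 of the 9 genes, against 35.7% of all tested genes. The median change was -0.03 for the 9 genes and -0.0028 for all tested genes, and the median size of a change, whatever its sign, was 0.31 and 0.12. With 1 array left out, 4 or 5 of the genes passed.

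**Figure D1:**
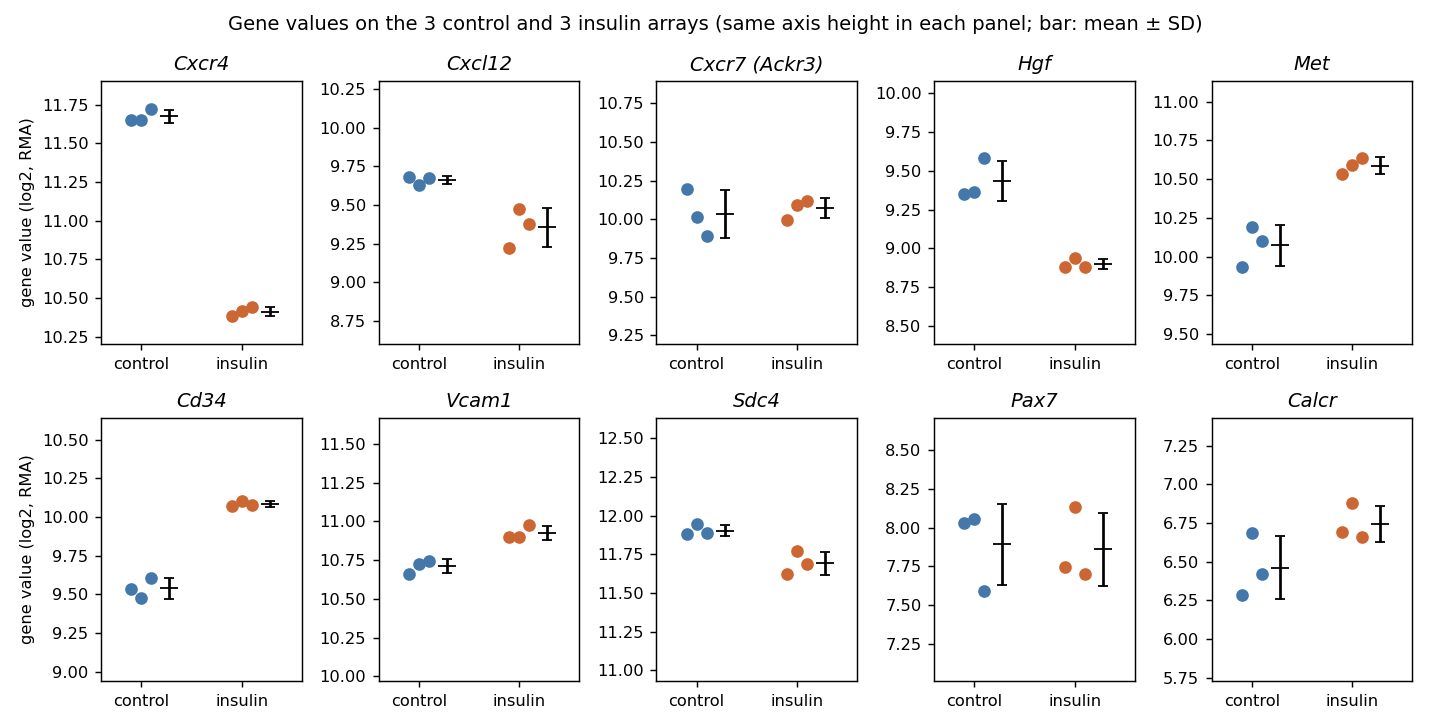
Gene values of the 10 genes on the log2 scale (y axis, the same height in each panel but another position) on the 3 control arrays (blue) and 3 insulin arrays (orange), with mean ± SD at the right of each group. The control and insulin arrays of Cxcr4 lie furthest apart, at 11.65 to 11.72 and 10.38 to 10.44, while those of Cxcr7, Pax7 and Calcr overlap.

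The CXCL12 receptor gene Cxcr4 had the largest change of the 10. Its log2 value was 11.65, 11.65 and 11.72 on the controls and 10.38, 10.41 and 10.44 on the insulin arrays. The arrays of a group lay far closer to each other than the groups did. The log2 change was -1.26 ± 0.06 (SE; 95% interval -1.40 to -1.12; limma adjusted p = 4.1e-05), which leaves 41.7% of the control level on the scale of RMA values. Only 2 of the 14291 tested genes fell further. Each of its 3 probe sets fell, by 1.07, 1.26 and 1.28, with limma adjusted p from 0.0013 to 0.0030 over all 148468 tested probe sets, of which 1.71% passed as lower.

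Cxcr7 (Ackr3), the other CXCL12 receptor, gave no call. Its control values were 10.19, 10.01 and 9.89, and its insulin values 10.00, 10.09 and 10.12, so the groups overlapped. The change was 0.04 ± 0.09 (SE), with a 95% interval of -0.17 to 0.24 and a limma adjusted p of 0.83. The 3 tested probe sets changed by 0.02 to 0.05, and the 4th, dim at a mean of 6.12, by -0.46. The difference between the receptors was taken within each array. Cxcr7 minus Cxcr4 was -1.64 ± 0.19 on the controls and -0.34 ± 0.04 on the insulin arrays (SD, n = 3), a shift of 1.30. By the exact permutation test over arrays its two-sided p was 0.1, and a design of 3 against 3 cannot give less.

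Cxcl12, the chemokine itself, fell with a call close to the threshold. Its values were 9.68, 9.63 and 9.67 on the controls and 9.22, 9.47 and 9.38 on the insulin arrays, with no overlap and a wider spread after insulin. The change was -0.31 ± 0.08 (SE; 95% interval -0.49 to -0.12; limma adjusted p = 0.035). No single probe set passed, and the smallest limma adjusted p among the 6 tested of 7 was 0.053. Of these 6, 5 went down without overlap between groups, by up to 0.36. Of all tested probe sets 29.8% do not overlap. The call was lost on leaving out control 1 (limma adjusted p = 0.067), control 2 (0.086), control 3 (0.062), insulin 1 (0.10) or insulin 3 (0.098), or on testing dim genes as well (0.063). With the mean of the probe sets the change was -0.16 (0.10). The dimmest probe set, at a mean of 5.04, went up by 0.31.

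The 250 bases before the annotated start of both genes that fell are shown, since Cxcr4 and Cxcl12 are a receptor and its ligand with changes of one direction and unequal size. Sequences are from the RefSeq promoter table (GRCm38.p6), 5′ to 3′ on the gene's strand. Of the 10 genes 9 had an entry, and Vcam1 had none. Capitals mark matches, on either strand, to the GC box GGGCGG, the FoxO site GTAAACA, the hypoxia element core ACGTG, the MyoD-type E-box CAGCTG or the TATA box TATAAA, where matches may overlap.
Cxcr4 (chr1:128592300-128592549, minus strand): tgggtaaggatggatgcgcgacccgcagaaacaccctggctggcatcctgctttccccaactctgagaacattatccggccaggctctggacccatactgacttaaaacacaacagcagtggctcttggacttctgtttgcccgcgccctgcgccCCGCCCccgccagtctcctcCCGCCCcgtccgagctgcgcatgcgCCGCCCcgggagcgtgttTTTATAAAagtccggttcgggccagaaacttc
Cxcl12 (chr6:117168285-117168534, plus strand): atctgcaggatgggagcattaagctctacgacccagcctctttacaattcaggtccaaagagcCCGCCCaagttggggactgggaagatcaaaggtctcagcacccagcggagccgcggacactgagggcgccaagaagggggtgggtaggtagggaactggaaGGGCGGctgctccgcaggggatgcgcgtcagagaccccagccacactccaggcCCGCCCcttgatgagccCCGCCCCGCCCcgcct
The Cxcr4 window held 3 GC boxes, at 95, 75 and 50 bases before the start, and TATAAA at 30 bases, overlapped by TTTATA on the other strand. The Cxcl12 window held 5 GC boxes, of which the 2 nearest the start overlap, and no TATAAA. Neither held the E-box, the FoxO site or the hypoxia core. Genes without a call shared such matches. The windows of Cxcr7, Pax7 and Sdc4, not shown, also held GC boxes, as did Calcr at 1 of its starts. That of Cxcr7 held TATAAA at 8 bases as well. Of 32851 windows of this length in the table, 32.7% held a GC box, 12.4% TATAAA, 13.0% the E-box, 3.17% the FoxO site and 16.6% the hypoxia core. A match describes letters only, and no binding was measured here.

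Hgf and Met, the ligand and its receptor, moved in opposite directions. Hgf read 9.35, 9.37 and 9.58 on the controls and 8.88, 8.93 and 8.88 on the insulin arrays, with no overlap. Its change was -0.53 ± 0.08 (SE; 95% interval -0.72 to -0.35; limma adjusted p = 0.0045), which leaves 69.0% of the control value. All 21 Hgf probe sets were lower after insulin, and 19 lay above the probe set filter (a mean of 7.57). Of these 19, 14 did not overlap between groups, where 29.8% of all tested probe sets do not. Limma's test was passed by 6 of the 19, where 1.71% of all tested probe sets passed as lower. Changes over the 19 ran from -1.24 to -0.20, and those of the 6 that passed from -0.77 to -0.53. The bright end is shown by the probe set at a mean of 10.48, which fell by 0.77.

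Met read 9.93, 10.19 and 10.10 on the controls and 10.53, 10.59 and 10.64 on the insulin arrays. All insulin arrays lay above all controls, and control 1 was the lowest array. The change was 0.51 ± 0.08 (SE; 95% interval 0.33 to 0.70; limma adjusted p = 0.0058), a 1.43-fold rise. All 20 Met probe sets were tested and all 20 were higher after insulin, 19 without overlap between groups, where 29.8% of all tested probe sets do not overlap. Of the 20, 8 passed limma's test, where 3.95% of all tested probe sets passed as higher. Changes over the 20 ran from 0.10 to 0.86. The brightest probe set went up by 0.30 and was not among the 8 (limma adjusted p = 0.066 over all probe sets), but when every gene was read from its brightest probe set Met passed at the gene level (adjusted p = 0.020). Met minus Hgf went from 0.64 ± 0.16 to 1.69 ± 0.06 (SD, n = 3), a shift of 1.05. Its two-sided p by the exact permutation test was again 0.1, the lowest this design can reach.

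The windows of both genes are shown because ligand and receptor went opposite ways, with capitals as above.
Hgf (chr5:16553245-16553494, plus strand): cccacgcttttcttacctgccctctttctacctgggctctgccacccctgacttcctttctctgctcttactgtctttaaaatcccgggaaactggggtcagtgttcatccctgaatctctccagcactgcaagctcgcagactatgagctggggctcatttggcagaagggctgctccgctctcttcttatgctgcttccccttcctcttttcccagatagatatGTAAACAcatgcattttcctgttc
Met (chr6:17463707-17463956, plus strand): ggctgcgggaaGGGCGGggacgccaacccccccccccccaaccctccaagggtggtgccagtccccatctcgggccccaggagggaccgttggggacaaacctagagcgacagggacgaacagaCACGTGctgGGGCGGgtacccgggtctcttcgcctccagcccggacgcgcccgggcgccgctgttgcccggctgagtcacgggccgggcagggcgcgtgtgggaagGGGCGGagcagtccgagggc
The Hgf window held the FoxO site GTAAACA at 24 bases before the start and no GC box. A further RefSeq start of Hgf, downstream of this one, had none of the 5 motifs in its window. The Met window held 3 GC boxes and, at 126 bases, the letters CACGTG, which match the hypoxia core on both strands. The GC content was 50.8% for Hgf and 74.0% for Met, against a median of 52.4% over all windows.

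**Figure D2:**
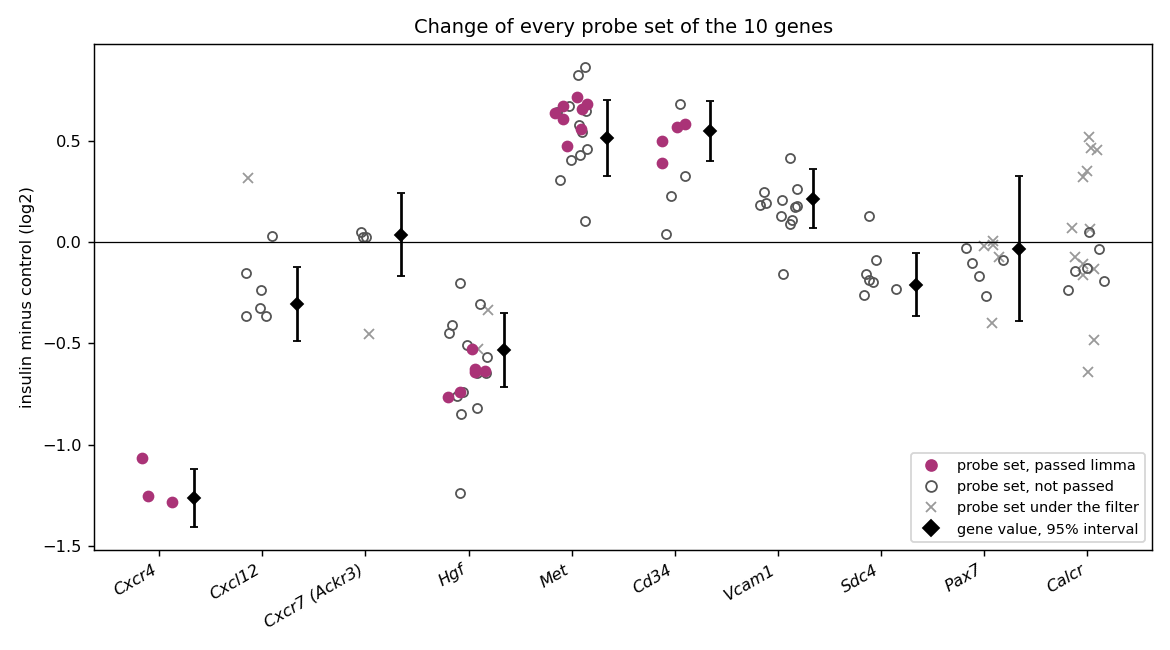
Insulin minus control on the log2 scale (y axis) for each of the 111 probe sets, by gene. Filled points passed limma's test over all probe sets, open points did not, crosses lay under the filter on dim probe sets, and diamonds are the gene values with 95% intervals. All Met and Cd34 points lie above 0 and all Hgf and Cxcr4 points below it.

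Among the surface markers Cd34, a sialomucin found on quiescent satellite cells and on vascular and blood progenitors, rose. Its values were 9.53, 9.48 and 9.61 on the controls and 10.07, 10.11 and 10.08 on the insulin arrays, with the insulin arrays closer together than the controls. The change was 0.55 ± 0.06 (SE; 95% interval 0.40 to 0.70; limma adjusted p = 0.0019), or 1.46-fold. All 8 probe sets were higher, 7 of them without overlap, against 29.8% of all tested probe sets. Limma's test was passed by 4, against 3.95% of all tested probe sets that passed as higher. Changes ran from 0.04 to 0.68 over the 8. The brightest probe set went up by 0.33 and did not pass over all probe sets (limma adjusted p = 0.064), while Cd34 passed at the gene level when every gene was read from its brightest probe set (0.022).

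The Cd34 window is shown as the other rise beside Met. It held none of the 5 motifs and had a GC content of 46.4%.
Cd34 (chr1:194938571-194938820, plus strand): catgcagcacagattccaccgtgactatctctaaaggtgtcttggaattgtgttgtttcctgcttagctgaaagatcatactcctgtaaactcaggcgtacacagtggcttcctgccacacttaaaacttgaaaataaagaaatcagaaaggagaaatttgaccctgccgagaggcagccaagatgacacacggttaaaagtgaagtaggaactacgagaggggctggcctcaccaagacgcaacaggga

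Vcam1, the adhesion receptor that binds integrin alpha-4 and takes part in myoblast contact, lay higher on all 3 insulin arrays without passing. The controls read 10.66, 10.73 and 10.75 and the insulin arrays 10.90, 10.90 and 10.98, so the groups did not overlap. The change was 0.21 ± 0.06 (SE; 95% interval 0.07 to 0.36; limma adjusted p = 0.057). Of its 12 probe sets, all tested, 11 were higher and none passed. Of the 12, 7 did not overlap, against 29.8% of all tested probe sets. Sdc4, a heparan sulfate proteoglycan and co-receptor for fibroblast growth factors, lay lower by a like amount. It read 11.88, 11.94 and 11.89 on the controls and 11.62, 11.77 and 11.69 on the insulin arrays, again without overlap. The change was -0.21 ± 0.07 (95% interval -0.36 to -0.06; limma adjusted p = 0.071). Of its 7 probe sets 6 were lower and none passed. Either gene passed with the 50th percentile filter (limma adjusted p = 0.032 for Vcam1 and 0.042 for Sdc4), with a trended robust prior (0.042 and 0.030) and with array weights (0.012 and 0.0081). Vcam1 also passed with its brightest probe set (0.043), where Sdc4 changed by -0.09 and did not (0.47). In 12 of the 16 alternative settings Vcam1 did not pass, and in 13 Sdc4 did not.

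Pax7 gave no call and wide limits. Its values were 8.03, 8.06 and 7.59 on the controls and 7.75, 8.13 and 7.70 on the insulin arrays, so control 3 and insulin 2 stood apart from the other arrays of their groups and the groups overlapped. The change was -0.03 ± 0.15 (SE), with a 95% interval of -0.39 to 0.32 and a limma adjusted p of 0.91. Of 10 probe sets 5 lay under the filter, and the 5 others changed by -0.26 to -0.03 without a call. Calcr, the receptor that helps hold adult satellite cells quiescent, was dim. Its values of 6.28, 6.69 and 6.42 on the controls and 6.69, 6.88 and 6.66 on the insulin arrays lay under the filter and overlapped. Of its 19 probe sets 13 lay under the filter, and none of the 6 others passed. Detection calls were not used here, so whether Calcr was present at all was not judged.

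Counted by probe set, 89 of the 111 were above the filter, 12 rose, 9 fell and 68 did not pass, where 5.66% of all 148468 tested probe sets passed. The calls lay in Met, Cd34, Hgf and Cxcr4. The count of 21 fell to 6 when control 2 was left out, to 11 for control 3, to 3 for insulin 1, to 4 for insulin 2 and to 3 for insulin 3. The shares of all probe sets that passed in those fits were not counted, so whether the loss is particular to the members was not tested. The 12 rises, 8 in Met and 4 in Cd34, became 6 without control 1, 2 without control 2 and 6 without control 3. In the same fits the 6 falls in Hgf became 5, 1 and 2. Without insulin 1, insulin 2 or insulin 3 limma called 0 probe sets higher, so the 3, 4 and 3 calls there were all falls. The 3 Cxcr4 probe sets passed in each of these fits, and the Hgf calls became 0, 1 and 0. At an unadjusted limma p under 0.05, 27, 28 and 26 member probe sets were higher in these fits, against 29 with all arrays. At that level 16, 14 and 15 Hgf probe sets were lower, against 16 with all arrays. The share of all tested probe sets at the unadjusted level was not counted, so these counts have no background beside them.

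Partner genes were read from 4 lists, compiled from general knowledge, with 146 genes on the table and 129 tested ones. Where a value is given with a gene's brightest probe set, or with its brighter ones (at or above the median brightness of its probe sets), every gene was read that way and refitted at the gene level. Of the 129 tested genes 11 rose, 20 fell and 98 did not pass, with a median of -0.06. Of all 14291 tested genes 9.56% passed as higher and 6.35% as lower. The 31 calls became 17 when control 2 was left out, 16 for insulin 1, 16 for insulin 2 and 15 for insulin 3. For these fits, and for the left-out arrays of each list below, the shares of all tested genes that passed were not counted.

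Among the partners of HGF and MET 2 of 31 tested genes rose, 6 fell and 23 did not pass, with a median of -0.06 and 25.8% past the threshold, against 15.9% of all tested genes. Dcn (decorin, a matrix proteoglycan that binds MET and is also a fibroblast marker) fell from 11.61 ± 0.05 to 11.04 ± 0.06 (SD, n = 3), and Plat (tissue plasminogen activator) fell from 10.94 ± 0.07 to 10.43 ± 0.04. Gab1, the docking protein that MET phosphorylates, fell by 0.41 ± 0.07 (SE; limma adjusted p = 0.0076). Cd44, a hyaluronan receptor that acts as a MET co-receptor, rose by 0.61 ± 0.11 (limma adjusted p = 0.011), so receptor and co-receptor went up while the docking protein went down. The Cd44 call was lost without insulin 2 (limma adjusted p = 0.052) and with its brightest probe set (0.22, 0.068) or its brighter ones (0.24, 0.13). The adaptor and enzyme genes Grb2 (-0.04), Ptpn11 (-0.16) and Cbl (0.10) did not pass, nor did the activator inhibitor Spint1 (0.16), whose relative Spint2 lay under the filter, or the related ligand and receptor genes Mst1 (-0.02) and Mst1r (-0.12). The 8 calls of this list became 5 on leaving out control 1, 4 for control 2, 5 for insulin 1, 3 for insulin 2 and 4 for insulin 3.

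Among the partners of the CXCL12 receptors 2 of 26 tested genes rose, 1 fell and 23 did not pass, with a median of 0.05. The share that passed was 11.5%, below the 15.9% of all tested genes. Mmp2, a gelatinase that can inactivate CXCL12, fell by 0.47 ± 0.06 (SE; limma adjusted p = 0.0032), though its brightest probe set (-0.31, 0.053) and its brighter ones (-0.33, 0.11) gave no call. Arrb2, the beta-arrestin that both receptors recruit, rose by 0.39 ± 0.08 (limma adjusted p = 0.013), a call lost without insulin 2 (0.056) or insulin 3 (0.060). Its relative Arrb1 changed by 0.34 ± 0.11 and did not pass (0.074), though it did without insulin 3 (0.45, 0.044). Rgs2, a regulator of G protein signalling, rose by 0.29 ± 0.07 (limma adjusted p = 0.025), a call that ended on leaving out control 2 (0.053), insulin 1 (0.068), insulin 2 (0.0997) or insulin 3 (0.066). It also ended with its brightest probe set (0.080), its brighter ones (0.28) or the mean of all (0.15). The kinase gene Jak2 changed by -0.31 ± 0.09 (0.062), and passed in 7 of 16 alternatives, among them without control 1 (-0.41, 0.0091). Itch, the ligase that sends CXCR4 to the lysosome, changed by -0.09 (0.43). Cxcl11, another ligand of ACKR3, and Dpp4, a peptidase that trims CXCL12, lay under the filter. The 3 calls became 5 without control 1.

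Of the other satellite cell and myoblast genes 3 of 36 tested ones rose, 6 fell and 27 did not pass. So 25% passed, against 15.9% of all tested genes, with a median of -0.14. The rule named Myod1, Odz4 (Tenm4), Heyl and Egfr. Odz4, a teneurin found on quiescent satellite cells, rose from 7.06 ± 0.07 to 7.57 ± 0.08 (SD, n = 3), close to the filter. Egfr, the EGF receptor gene, fell from 9.96 ± 0.08 to 9.57 ± 0.03. Myod1 and Heyl, a myogenic factor and a Notch target, fell by 0.57 and 0.44. The brightest probe set alone ended the call of Heyl (-0.05, limma adjusted p = 0.78), Odz4 (0.22, 0.32) and Myod1 (-0.31, 0.075), and Odz4 did not pass with its brighter probe sets either (0.25, 0.21). The 9 calls became 4 on leaving out insulin 1, 5 for insulin 2 and 4 for insulin 3.

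Of the partners of VCAM1, the syndecans, CD34 and the calcitonin receptor 4 of 36 tested genes rose, 7 fell and 25 did not pass. So 30.6% passed, against 15.9% of all tested genes, with a median of -0.05. Itgb7, the beta-7 subunit that pairs with alpha-4 to bind VCAM1, rose from 8.45 ± 0.16 to 9.34 ± 0.04 (SD, n = 3), a 1.84-fold change with a limma adjusted p of 0.0012. The alpha-4 gene Itga4 changed by -0.09 (0.40) and Itga9, whose product also binds VCAM1, fell by 0.32 (limma adjusted p = 0.017), a call lost without insulin 1 (0.067) or insulin 3 (0.060) and with its brightest probe set (0.25). Sdc2, another syndecan, fell by 0.39 ± 0.06 (SE; limma adjusted p = 0.0065), though its brighter probe sets gave -0.19 and no call (0.053). Synpo, an actin-associated protein, fell by 0.45 ± 0.07 (limma adjusted p = 0.0059). Tnc, the matrix protein tenascin C, rose from 10.41 ± 0.07 to 11.10 ± 0.11 (SD, n = 3). Of the receptor-modifying proteins that pair with the calcitonin receptor or its relative, Ramp2 fell by 0.33 (limma adjusted p = 0.043), which was lost without control 2 (0.13), control 3 (0.085), insulin 1 (0.14) or insulin 3 (0.14) and with no filter (0.076). Ramp3 (0.05) did not pass. Ramp1 (0.04) did not pass either, and its direction turned with its brighter probe sets (-0.56, 0.0032). Of the peptide ligands Calca (0.07) did not pass, and Calcb and Iapp lay under the filter. The related receptor Calcrl (-0.08) and the CD34 relatives Podxl (0.10) and Podxl2 (-0.26) did not pass. The 11 calls became 5 on leaving out control 2, 5 for insulin 1, 6 for insulin 2 and 5 for insulin 3.

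**Figure D3:**
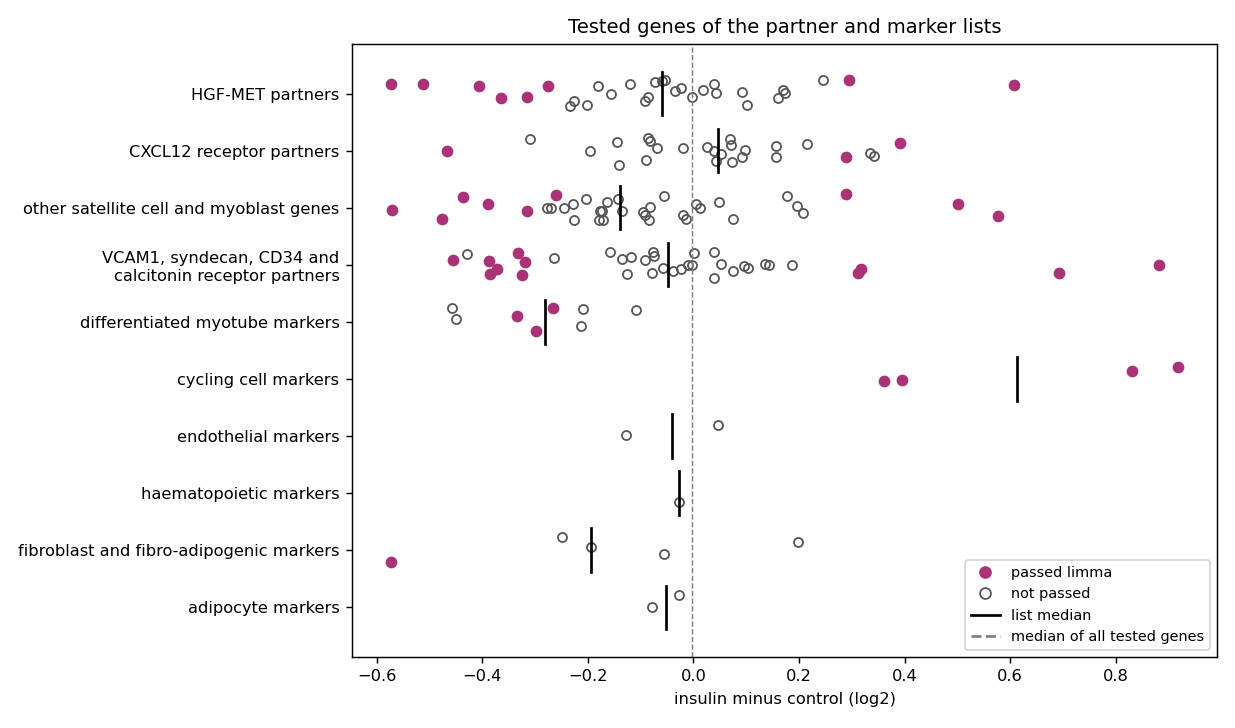
Insulin minus control on the log2 scale (x axis) for the tested genes of the 4 partner lists and the 6 marker lists. Filled points passed limma's test, open points did not, black bars are list medians and the dashed line is the median of all tested genes. The 4 cycling cell markers all lie above 0 and the 8 myotube markers below it.

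The labelled cell type was checked on markers. All 8 markers of differentiated myotubes (among them Myog, Ckm and Acta1) were tested, and their mean level ran from 12.55 to 12.74 on the controls and from 12.34 to 12.38 on the insulin arrays. In this list 3 genes fell (Tnnt1, Ckm and Myog), none rose and the median was -0.28, where 6.35% of all tested genes passed as lower. The 4 cycling cell markers on the table all rose, where 9.56% of all tested genes passed as higher. Their median was 0.61, with mean levels of 10.75 to 10.79 on the controls and 11.33 to 11.43 on the insulin arrays. Both lists moved with the groups beside every change given above, and their part in those changes was not tested. Markers of endothelial cells, which also express Cd34 and Vcam1, had mean levels of 6.45 to 6.54 and 6.46 to 6.57, with 4 of 6 under the filter and neither of the others passing. Of 6 haematopoietic markers 5 lay under the filter, as did 2 of 4 adipocyte markers, and none of the rest passed. Fibroblast and fibro-adipogenic markers had mean levels of 9.56 to 9.64 and 9.40 to 9.48. Of the 5 tested Dcn fell and 4 did not pass. C2C12 is a single line, so these markers do not measure a separate fibroblast population. A link between them and the fall of Cxcl12 was not tested.

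The changes of the 9 tested genes were recomputed under 16 alternatives of normalization, filter, prior, array weights, probe set summary and left-out array. Cxcr4 ran from -1.29 to -1.07, Hgf from -0.77 to -0.46, Met from 0.30 to 0.57 and Cd34 from 0.33 to 0.60, and these 4 genes passed each time. Vcam1 (0.12 to 0.25) passed in 4 of the 16 and Sdc4 (-0.25 to -0.09) in 3. Cxcr7 (-0.09 to 0.12) and Pax7 (-0.18 to 0.05) lay on either side of 0 and passed in none, though the 50th percentile filter left Pax7 untested.

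**Figure D4:**
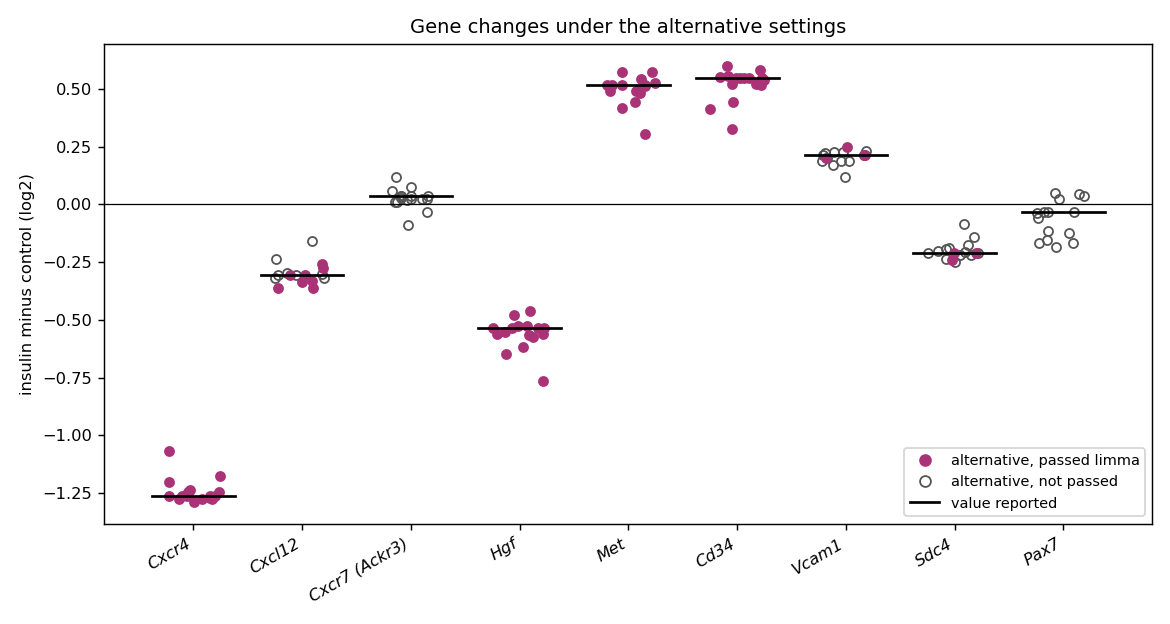
Log2 change of the 9 tested genes (y axis) under each alternative setting (points, filled where the gene passed limma's test) beside the value reported (bar). Cxcr4, Hgf, Met and Cd34 passed in all 16 alternatives, and Cxcl12 in 8 of 16.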

How the data were processed

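Values are the authors' deposited log2 signals of single probe sets, processed with RMA per the submitters' processing notes (version not given in the sources used here), from 25 ng of amplified total RNA per the labels. That the base is 2 was judged from their range, 3.15 to 14.6. RMA equalizes the arrays, whose medians lay between 8.79 and 8.82, so changes are relative to other transcripts. No detection calls, scan dates or batches were used here, and precision is limited by the number of arrays. Symbols, which can be old, came from GEO's platform annotation, and only the 212097 probe sets with 1 symbol were used. List genes were matched through RefSeq synonyms (GRCm38.p6). Genes under the 30th percentile were not tested. Insulin minus control was fitted without covariates with limma 3.58.1 (R 4.3.3, two-sided, Benjamini-Hochberg over all tested genes or probe sets, threshold 0.05), after a check on simulated data. SE is that of the moderated fit. Named genes were all members and the 4 smallest p of each partner list, and direct partners could be named as well. Members, lists and tests were chosen with earlier results of these data known. Alternatives were a replicate block, other normalizations, filters, priors, weights and probe set summaries, and leaving out each array. Applying them to partner genes was decided after seeing the data.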

Additional observations from a re-analysis of the deposited data

How the results depend on the processing

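Cxcr4, Hgf, Met and Cd34 kept their direction and call in all 16 alternatives, and Cxcl12 kept its direction in 16 and its call in 8. A replicate block, another filter or the trended robust prior cannot alter the change itself, so there only the call could differ. Between 4 and 7 of the 10 genes passed over the 16 alternatives. The count of probe sets past limma's threshold (21) was 6 with no filter, 33 with the 50th percentile filter, 36 with a trended robust prior, 54 with array weights, and 3 to 14 with 1 array left out. The 31 calls of the partner lists became 61 with array weights, 15 when each gene was read from its brightest probe set, and 15 to 32 with 1 array left out. The shares of all tested genes and probe sets under the same alternatives were not set beside these counts. Ramp1 turned to -0.56 with its brighter probe sets; the cause was not tested. The shifts of Met minus Hgf (0.99 to 1.19) and Cxcr7 minus Cxcr4 (1.09 to 1.39) kept their direction in all 12 alternatives, in a design that cannot pass 0.05. Among these, the replicate block and the centring of each array on its median cannot alter a within-array shift.

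Deviations of same-numbered control and insulin arrays from their group means had correlations of 0.025, 0.19 and -0.00036 over 14291 genes. Of the 6 arrays 2 were closest to their own number. With 3 arrays per group this check cannot exclude a weak pairing, and the main fit used none. With the replicate block 11 of the probe sets passed, 2 higher and 9 lower, and Cxcl12 did not (-0.31, limma adjusted p = 0.060). Detection was not judged, which limits what can be said of Calcr and of dim probe sets of Pax7.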
